A study of Mus musculus with 12 samples.

Results

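The 10 genes Etv2, Tal1, Lmo2, Fli1, Erg, Kdr, Flt1, Tek, Pecam1 and Cdh5 stand for the step at which mesoderm gives rise to endothelium and blood. They were taken by gene ID from the 18269 genes of the deposited table, and all 10 were listed there and had a mean of at least 10 normalised reads in at least 1 group. The RNA came from mouse embryoid bodies, which are aggregates of embryonic stem cells left to differentiate. Gcn5-/- embryoid bodies (line 4C2) and Gcn5fx/fx embryoid bodies (line 4_1) were sampled at day 5 and at day 3, with 3 libraries in each of the 4 groups. The lines are labelled C57BL/6. The fx allele is the floxed form of Gcn5, a lysine acetyltransferase of histones whose gene is Kat2a, and the agent used to delete it is not given in the sources used here. Each genotype is 1 line, so genotype and line cannot be told apart. The labels give 3 samples a group while the series text speaks of duplicates, and neither says that the samples were separate cultures, so p-values measure the spread between these samples, which may be technical. The study asks how loss of Gcn5 alters early differentiation.

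In the embryo, endothelial and primitive blood cells arise from mesoderm that expresses Kdr, the main receptor for the growth factor VEGF-A. The ETS factor Etv2 acts early and briefly in this step. Tal1 and its partner Lmo2 are needed for blood, and the related ETS factors Fli1 and Erg act with them and later maintain endothelium. Flt1 binds VEGF-A as well and limits its signal, Tek is the receptor for angiopoietins, and Pecam1 and Cdh5 are adhesion proteins of endothelial cell contacts. Pecam1, Lmo2 and Flt1 are also expressed outside endothelium, Pecam1 being known from undifferentiated mouse embryonic stem cells. These libraries are of whole embryoid bodies, in which fewer cells of a type and less RNA per cell cannot be told apart.

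Values are read counts divided by 1 size factor per library, called normalised reads below, and recovered totals were 18022071 to 26803369 reads per Gcn5-/- library and 23090915 to 29446068 per Gcn5fx/fx library. Kat2a averaged 817 ± 67.5 normalised reads in Gcn5-/- and 2207 ± 165 in Gcn5fx/fx embryoid bodies at day 5 (SD, n = 3 each). At day 3 it averaged 701 ± 122 in Gcn5-/- and 2228 ± 151 in Gcn5fx/fx. At day 5 the libraries numbered 3 held the highest value of their group for 9 of the 10 genes in Gcn5-/-. In Gcn5fx/fx it was also 9 of the 10, with 8 genes the same in both lines. At day 3 they were highest for 4 genes in Gcn5-/- and 3 in Gcn5fx/fx. The share over all genes was not counted, so this is not read as a trait of the 10 genes. Counts of the 10 genes by genotype and by day, and some genotype counts of the further gene lists, are also given without the 4 libraries of that number. Day counts of those lists are given with all 12 libraries only. The 6 endothelial markers Cdh5, Pecam1, Kdr, Tek, Cldn5 and Esam summed to 340.2 to 710.4 normalised reads in Gcn5-/- and 387 to 814 in Gcn5fx/fx at day 5. At day 3 they summed to 564 to 645 in Gcn5-/- and 328 to 487 in Gcn5fx/fx, but Cdh5, the most specific of them, was then at 0 to 3.63 normalised reads in every library. All 6 markers were detected at day 5, while at day 3 most of the sum was Pecam1. Cdh5, Pecam1, Kdr and Tek are also among the 10 genes, so these sums are not a separate measure. Emcn, a further marker on the list, was not analysed here. The 8 pluripotency markers (Pou5f1, Nanog, Zfp42, Klf4, Esrrb, Tbx3, Tdgf1 and Dppa5a) summed to 4051 to 8684 in Gcn5-/- and 9247 to 17213 in Gcn5fx/fx at day 5. At day 3 their sums were 24429 to 38490 in Gcn5-/- and 30804 to 44358 in Gcn5fx/fx.

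The promoters of Kdr and Erg are shown because these genes had the largest day change and the largest genotype change of the 10. RefSeq on GRCm38.p6 gave 9 windows of 300 bases (250 before and 50 after a start) for 6 of the genes, namely Tek, Tal1, Kdr, Flt1, Etv2 and Erg. Erg has 3 listed starts, and its outermost and innermost are printed. Kdr lies at chr5:75978406-75978705, the outer Erg window at chr16:95586544-95586843 and the inner one at chr16:95459299-95459598, all on the minus strand. Capitals mark the motif CAGATG (an E-box) in Kdr and CTTATCT, the reverse complement of the GATA motif AGATAAG, in the inner Erg window.
Kdr: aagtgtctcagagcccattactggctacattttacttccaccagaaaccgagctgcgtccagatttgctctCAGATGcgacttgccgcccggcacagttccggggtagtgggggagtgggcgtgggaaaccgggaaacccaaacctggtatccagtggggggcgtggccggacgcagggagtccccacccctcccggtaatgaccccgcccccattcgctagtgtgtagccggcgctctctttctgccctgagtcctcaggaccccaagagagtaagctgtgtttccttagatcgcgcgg
Erg outer start: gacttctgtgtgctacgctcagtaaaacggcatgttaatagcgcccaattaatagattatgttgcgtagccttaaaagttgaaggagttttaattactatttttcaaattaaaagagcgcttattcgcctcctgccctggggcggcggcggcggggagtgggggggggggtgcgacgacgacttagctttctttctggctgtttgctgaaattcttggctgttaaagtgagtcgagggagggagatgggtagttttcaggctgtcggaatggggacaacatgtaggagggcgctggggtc
Erg inner start: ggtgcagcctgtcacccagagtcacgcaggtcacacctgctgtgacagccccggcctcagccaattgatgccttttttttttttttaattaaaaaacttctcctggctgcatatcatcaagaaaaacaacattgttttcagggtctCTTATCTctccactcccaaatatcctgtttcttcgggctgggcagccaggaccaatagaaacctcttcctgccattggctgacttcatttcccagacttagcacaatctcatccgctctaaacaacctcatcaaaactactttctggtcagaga
Both strands were searched for 4 motifs, none of which contains another. The ETS core CCGGAAG was in none of the 9 windows and in 8.86% of 32851 promoter windows. AGATAAG was in the windows of Tek and of the inner Erg start, and in 3.04% of all windows. CAGATG was in the Kdr window and in 1 of the 2 Tal1 windows, and in 17.2% of all. CAGCTG was in none of the 9, and in 16.3% of all. A match is a string of letters and was not tested as a site.

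Erg was the 1 gene of the 10 called between the lines, being higher in Gcn5-/- than in Gcn5fx/fx embryoid bodies at both days. At day 5 it averaged 151 ± 81.6 normalised reads in Gcn5-/- and 17.4 ± 6.67 in Gcn5fx/fx (SD, n = 3 each), a ratio of 8.63. No other of the 10 passed the test between genotypes. More of them moved with time: Kdr, Cdh5 and Erg rose and Lmo2 fell in both lines at day 5 relative to day 3. Of these, Kdr and Cdh5 reached a mean of 10 normalised reads only at day 5. For Erg and Lmo2 the days overlapped in Gcn5fx/fx, and the calls there were lost under 10 and 2 of the 23 alternatives. The test was limma-trend on log2(value + 1) over 17000 genes, and a gene is called at a Benjamini-Hochberg adjusted p under 0.05, two-sided. Between genotypes 1 of the 10 was called at day 3, as higher in Gcn5-/-, against 6.12% of all genes tested (4.09% higher, 2.03% lower). At day 5 it was again 1 of 10, higher, against 26.5% of all genes (13% higher, 13.5% lower). Without the libraries numbered 3 these counts were 0 at day 3 and 1 at day 5. With the replicate number as a block they were 2 at day 3, Lmo2 being added, and 2 at day 5, Pecam1 being added. The median log2 change of the 10 genes was 0.33 at day 3 and 0.15 at day 5, against -0.0036 and -0.020 over all genes tested.

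**Figure D1:**
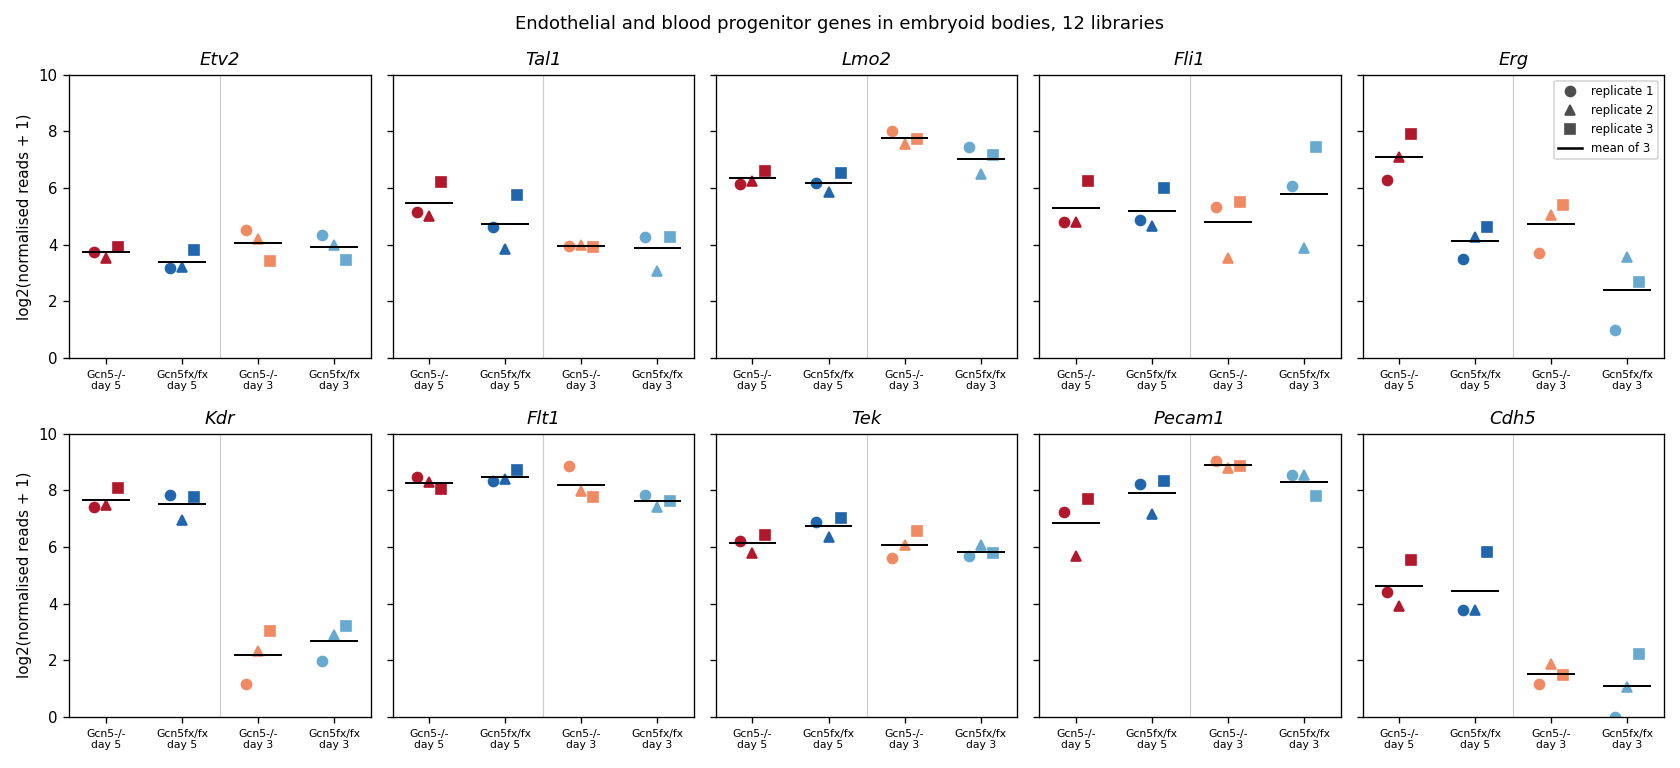
Normalised reads of each of the 10 genes in every library as log2(value + 1), with the replicate number shown by the shape of the point and the mean of the 3 log2 values as a line, for Gcn5-/- and Gcn5fx/fx at day 5 and day 3. Erg in Gcn5-/- lies above Gcn5fx/fx at both days, and Kdr and Cdh5 are near the bottom of the axis at day 3 in both lines.

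Etv2 (ENSMUSG00000006311.8, chromosome 7, 30633616 to 30635852), the early inducer of the programme, was low throughout. It had 12.4, 10.5 and 14.3 normalised reads in Gcn5-/- and 7.96, 8.38 and 13.1 in Gcn5fx/fx at day 5. Day 3 values were 22.0, 17.4 and 9.84 in Gcn5-/- and 19.4, 15.0 and 9.98 in Gcn5fx/fx. All 4 groups overlapped, and no comparison passed the test. Its log2 change between genotypes was 0.33 ± 0.37 at day 5 (SE, adjusted p = 0.546, limma) and 0.12 ± 0.37 at day 3 (adjusted p = 0.887, limma).

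Tal1 (ENSMUSG00000028717.12, chromosome 4, 115056426 to 115071755), a basic helix-loop-helix factor required for all blood lineages, had 35.0, 31.5 and 74.0 normalised reads in Gcn5-/- at day 5, against 14.7, 14.7 and 14.3 at day 3. In Gcn5fx/fx it had 23.9, 13.4 and 53.3 at day 5, against 18.4, 7.51 and 18.1 at day 3. The 2 days did not overlap in Gcn5-/- and did overlap in Gcn5fx/fx. Tal1 rose in Gcn5-/- by a log2 change of 1.51 ± 0.48 (adjusted p = 0.0220, limma), and in Gcn5fx/fx the change was 0.87 ± 0.48 (adjusted p = 0.169, limma). The Gcn5-/- call was lost without the first library of day 3 (adjusted p = 0.0523, limma), without the second of day 3 (0.0525), without the third of day 5 (log2 1.14, adjusted p = 0.0980) and without all libraries numbered 3 (adjusted p = 0.0784), while without the second Gcn5fx/fx library of day 5 the Gcn5fx/fx change passed (1.32, adjusted p = 0.0494). The difference between the lines in the day change was 0.64 ± 0.68 (adjusted p = 0.734, limma).

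Lmo2 (ENSMUSG00000032698.15, chromosome 2, 103957986 to 103981878), the LIM-only protein that bridges Tal1 and GATA factors, was lower at day 5 than at day 3 in both lines. It had 70.1, 75.7 and 96.3 normalised reads in Gcn5-/- and 70.8, 57.0 and 92.5 in Gcn5fx/fx at day 5. Its day 3 values were 259, 186 and 211 in Gcn5-/- and 174, 90.1 and 142 in Gcn5fx/fx. The days did not overlap in Gcn5-/- and overlapped by a narrow margin in Gcn5fx/fx. Between the lines the libraries overlapped at day 5, and at day 3 each Gcn5-/- library lay above each Gcn5fx/fx library. Lmo2 fell by 1.43 ± 0.25 on the log2 scale in Gcn5-/- (adjusted p = 0.000646, limma) and by 0.85 ± 0.25 in Gcn5fx/fx (adjusted p = 0.0164, limma). The Gcn5fx/fx call was lost without the first library of day 3 (-0.65, adjusted p = 0.0866) or the second of day 5 (-0.69, adjusted p = 0.0704). Between genotypes at day 3 the log2 change was 0.72 ± 0.25 (adjusted p = 0.113, limma), which passed with the replicate block (adjusted p = 0.0409).

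Fli1 (ENSMUSG00000016087.13, chromosome 9, 32422204 to 32542861), an ETS factor of blood and endothelium, varied widely between libraries of a group. At day 5 it had 27.1, 26.8 and 75.8 normalised reads in Gcn5-/- and 28.6, 24.3 and 63.7 in Gcn5fx/fx. The day 3 libraries held 39.1, 10.7 and 44.7 in Gcn5-/- and 65.8, 13.9 and 175 in Gcn5fx/fx. The second library was the lowest in all 4 groups and the third the highest in all 4. No comparison of Fli1 passed the test, and its log2 change between genotypes was 0.10 ± 0.78 at day 5 (adjusted p = 0.940, limma) and -1.01 ± 0.78 at day 3 (adjusted p = 0.483, limma).

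Erg (ENSMUSG00000040732.18, chromosome 16, 95359169 to 95586593), an ETS factor that maintains endothelium and blood stem cells, had 78.0, 135 and 239 normalised reads in Gcn5-/- and 10.3, 18.4 and 23.6 in Gcn5fx/fx at day 5. The lowest Gcn5-/- library was above the highest Gcn5fx/fx library. The log2 change was 2.97 ± 0.63 (adjusted p = 0.00520, limma), and it was called under each of the 23 alternatives, with adjusted p-values up to 0.0344. At day 3 Erg had 12.2, 32.1 and 41.1 in Gcn5-/- and 0.968, 10.7 and 5.44 in Gcn5fx/fx, again without overlap. That change was 2.32 ± 0.63 (adjusted p = 0.0488, limma), with means in a ratio of 4.99.

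The day 3 call of Erg between genotypes lay close to the threshold and was lost under 14 of the 23 alternatives, with log2 changes of 1.60 to 2.49 and adjusted p-values of 0.0501 to 0.180 (limma or edgeR). Leaving out 1 library ended it for the first (1.60, adjusted p = 0.168) and the third (0.0758) Gcn5fx/fx library of day 3, the second (0.121) and the third (0.164) Gcn5-/- library of day 3, the first (0.0540) and second (0.0626) Gcn5fx/fx library of day 5, and the second (0.0689) and the third (0.0506) Gcn5-/- library of day 5. With time Erg rose in Gcn5-/- by a log2 change of 2.38 ± 0.63 (adjusted p = 0.00839, limma), with no overlap between days. In Gcn5fx/fx it rose by 1.73 ± 0.63 (adjusted p = 0.0428, limma), where the lowest day 5 value was below the highest day 3 value. The Gcn5fx/fx call was lost under 10 of the 23 alternatives: without the first (1.01, adjusted p = 0.201) or the third (0.0556) Gcn5fx/fx library of day 3, the second (0.1002) or the third (0.121) Gcn5fx/fx library of day 5, the second Gcn5-/- library of day 3 (0.0535) or the second Gcn5-/- library of day 5 (0.0555), without the libraries numbered 3 (0.119), with a pseudocount of 5 (0.0695), with only the 2 groups compared (0.0668) and in edgeR (adjusted p = 0.0831). The genotype effect on Erg did not pass a test of difference between days (0.65 ± 0.90, adjusted p = 0.806, limma).

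The genes within 500 kb of Erg that could be tested were Ets2, Psmg1 and Brwd1. Ets2, an ETS factor next to Erg, averaged 778 normalised reads in Gcn5-/- and 717 in Gcn5fx/fx at day 5, a log2 change of 0.12 ± 0.10 (adjusted p = 0.410, limma). At day 3 it averaged 595 in Gcn5-/- and 709 in Gcn5fx/fx (-0.25 ± 0.10, adjusted p = 0.151, limma). Brwd1, a bromodomain protein, was higher in Gcn5-/- at day 5, with 5975 in Gcn5-/- and 4628 in Gcn5fx/fx (0.37 ± 0.08, adjusted p = 0.00590, limma). Psmg1, a proteasome assembly chaperone, was called at neither day, with log2 changes of -0.16 ± 0.08 at day 5 and 0.21 ± 0.08 at day 3.

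**Figure D2:**
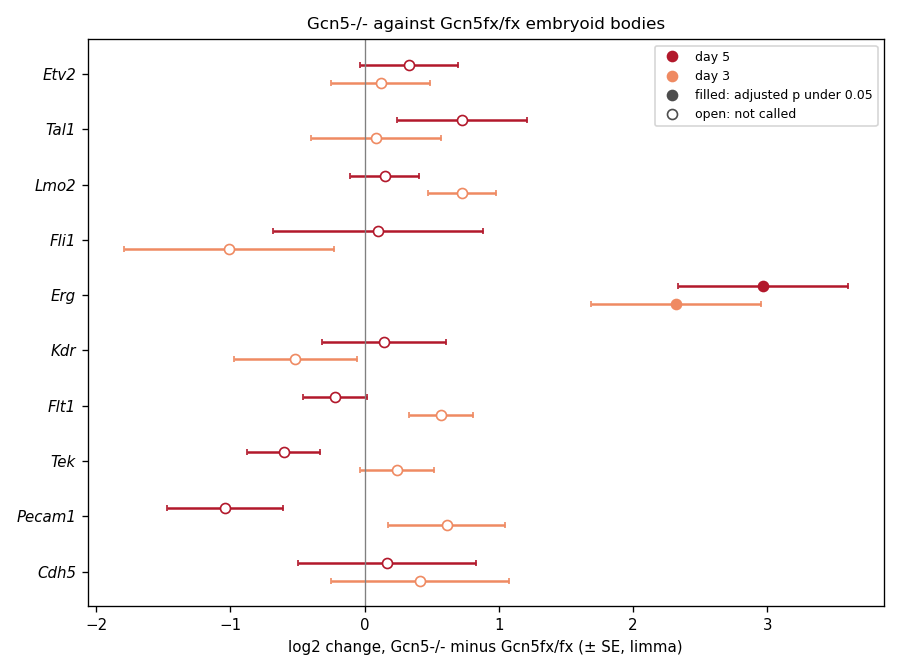
Log2 change of each of the 10 genes between Gcn5-/- and Gcn5fx/fx at day 5 and at day 3 (points, with SE bars from limma), filled where the adjusted p is under 0.05. Only the 2 Erg points are filled, at 2.97 for day 5 and 2.32 for day 3, and Pecam1 lies at -1.04 for day 5 and 0.61 for day 3.

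Kdr (ENSMUSG00000062960.10, chromosome 5, 75932827 to 75978458), whose promoter is printed above, was nearly absent at day 3 and clearly present at day 5 in both lines. It had 168, 178 and 267 normalised reads in Gcn5-/- and 224, 121 and 217 in Gcn5fx/fx at day 5. Day 3 libraries held only 1.22, 4.02 and 7.15 in Gcn5-/- and 2.90, 6.43 and 8.16 in Gcn5fx/fx, which rest on 12 reads in all in Gcn5-/- and 18 in Gcn5fx/fx. The log2 change with time was 5.48 ± 0.46 in Gcn5-/- (adjusted p = 3.78e-06, limma) and 4.82 ± 0.46 in Gcn5fx/fx (adjusted p = 7.26e-06, limma), with means in ratios of 49.5 and 32.2. The lines overlapped at both days, with log2 changes between genotypes of 0.14 ± 0.46 at day 5 (adjusted p = 0.851, limma) and -0.52 ± 0.46 at day 3 (adjusted p = 0.550, limma). Kdr, like Cdh5, passed the filter on low values only through its day 5 groups, so that a difference between days was built into its selection for testing.

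Flt1 (ENSMUSG00000029648.13, chromosome 5, 147561604 to 147726011), the decoy receptor for VEGF-A, was already well expressed at day 3. It had 352, 309 and 260.3 normalised reads in Gcn5-/- and 317, 339 and 417 in Gcn5fx/fx at day 5. Day 3 levels were 458, 248 and 215 in Gcn5-/- and 227, 169 and 194 in Gcn5fx/fx. The days overlapped in Gcn5-/- and did not overlap in Gcn5fx/fx. Flt1 rose with time in Gcn5fx/fx by a log2 change of 0.86 ± 0.24 (adjusted p = 0.0111, limma), and in Gcn5-/- the change was 0.07 ± 0.24 (adjusted p = 0.833, limma). The difference between these day changes was -0.79 ± 0.34 and did not pass (adjusted p = 0.313, limma).

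Tek (ENSMUSG00000006386.15, chromosome 4, 94739289 to 94874976), the angiopoietin receptor, gave a like picture. It had 72.3, 54.8 and 84.7 normalised reads in Gcn5-/- and 115, 79.6 and 130.1 in Gcn5fx/fx at day 5. Its levels at day 3 were 47.7, 65.6 and 93.9 in Gcn5-/- and 50.3, 65.4 and 53.5 in Gcn5fx/fx. Tek rose with time in Gcn5fx/fx by 0.91 ± 0.27 on the log2 scale (adjusted p = 0.0169, limma), with no overlap between days, while in Gcn5-/- the days overlapped and the change was 0.06 ± 0.27 (adjusted p = 0.871, limma). The Gcn5fx/fx call was lost without the first library of day 3 (adjusted p = 0.0629), the first (0.0526) or the third (0.0646) of day 5, or all libraries numbered 3 (0.0775). Between genotypes Tek changed by -0.60 ± 0.27 at day 5 (adjusted p = 0.120, limma), with overlapping libraries, and the lines' day changes differed by -0.85 ± 0.39 (adjusted p = 0.345, limma).

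Pecam1 (ENSMUSG00000020717.19, chromosome 11, 106654217 to 106750628), the adhesion molecule also found on embryonic stem cells, was lower at day 5 than at day 3 in the Gcn5-/- line. It had 148, 50.1 and 205 normalised reads in Gcn5-/- and 298, 141 and 321 in Gcn5fx/fx at day 5. The day 3 values were 528, 439 and 467 in Gcn5-/- and 372, 369 and 220.4 in Gcn5fx/fx. The Gcn5-/- libraries thus lay above all Gcn5fx/fx libraries at day 3 and reached lower than them at day 5, where the groups overlapped. Pecam1 fell with time by 2.04 ± 0.43 on the log2 scale in Gcn5-/- (adjusted p = 0.00211, limma), and in Gcn5fx/fx the change was -0.39 ± 0.43 (adjusted p = 0.508, limma). The difference between the 2 was -1.65 ± 0.61 and did not pass (adjusted p = 0.244, limma).

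Between genotypes Pecam1 changed by -1.04 ± 0.43 at day 5 (adjusted p = 0.0935, limma) and by 0.61 ± 0.43 at day 3 (adjusted p = 0.439, limma). The day 5 change passed with the replicate block (adjusted p = 0.0463), without the second Gcn5fx/fx library of day 5 (-1.42, adjusted p = 0.0358) and without the third Gcn5-/- library of day 5 (-1.45, adjusted p = 0.0336). Chromosome 11, which carries Pecam1, was shifted between the lines as a whole: its 1332 tested genes had a median log2 change of 0.33 at day 5 and 0.36 at day 3, against -0.04 and -0.02 for the genes of other chromosomes. Relative to that shift Pecam1 changed by -1.37 at day 5 (adjusted p = 0.0369, limma). The sums of the pluripotency markers were lower in Gcn5-/- than in Gcn5fx/fx at day 5, and at day 3 they overlapped. The median log2 change of these markers at day 3 was -0.32. Pecam1 was called between genotypes at neither day in the main fit, and the part of these markers in its values was not tested.

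Cdh5 (ENSMUSG00000031871.8, chromosome 8, 104101625 to 104144511), the cadherin that defines endothelial junctions, had 20.3, 13.98 and 45.5 normalised reads in Gcn5-/- and 12.7, 12.6 and 55.0 in Gcn5fx/fx at day 5. At day 3 it had 1.22, 2.68 and 1.79 in Gcn5-/- and 0, 1.07 and 3.63 in Gcn5fx/fx, resting on 5 reads in all in each line. Each day 5 library lay above each day 3 library. Like Kdr, Cdh5 passed the low-value filter only through its day 5 groups, so a difference between days was built into its selection. The log2 change with time was 3.12 ± 0.66 in Gcn5-/- (adjusted p = 0.00212, limma) and 3.36 ± 0.66 in Gcn5fx/fx (adjusted p = 0.00136, limma). The lines overlapped at both days, and the change between genotypes was 0.17 ± 0.66 at day 5 (adjusted p = 0.878, limma) and 0.42 ± 0.66 at day 3 (adjusted p = 0.768, limma).

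Counted over the days, 6 of the 10 genes were called in Gcn5-/-, with 4 higher (Tal1, Erg, Kdr, Cdh5) and 2 lower (Lmo2, Pecam1) at day 5, against 44.5% of all genes tested (22.6% higher, 21.9% lower). In Gcn5fx/fx 6 were called, with 5 higher (Erg, Kdr, Flt1, Tek, Cdh5) and 1 lower (Lmo2), against 41.7% of all genes (22.5% higher, 19.2% lower). Kdr and Cdh5, which rose in both lines, passed the filter on low values only through their day 5 groups. That fixes part of each rising count, and the medians below include both genes. Without the libraries numbered 3 the counts were 5 in Gcn5-/- and 4 in Gcn5fx/fx. The median log2 change with time was 0.28 in Gcn5-/- and 0.87 in Gcn5fx/fx, against 0.00 over all genes in both. No gene of the 10 passed the test of whether the day change differed between lines, where 0.476% of all genes were called (0.247% higher, 0.229% lower); edgeR and DESeq2 also called 0, and 3 genes (Flt1, Tek and Pecam1) were under an unadjusted p of 0.05 in limma. The 2 day comparisons share libraries with the genotype comparisons, so their values are set side by side and not combined. Groups did not overlap for 1 of the 10 genes between genotypes at day 5 and for 3 at day 3, against 42% and 27.9% of all genes. Between days groups did not overlap for 6 of the 10 in Gcn5-/- and 4 in Gcn5fx/fx, against 53.7% and 53.2%.

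**Figure D3:**
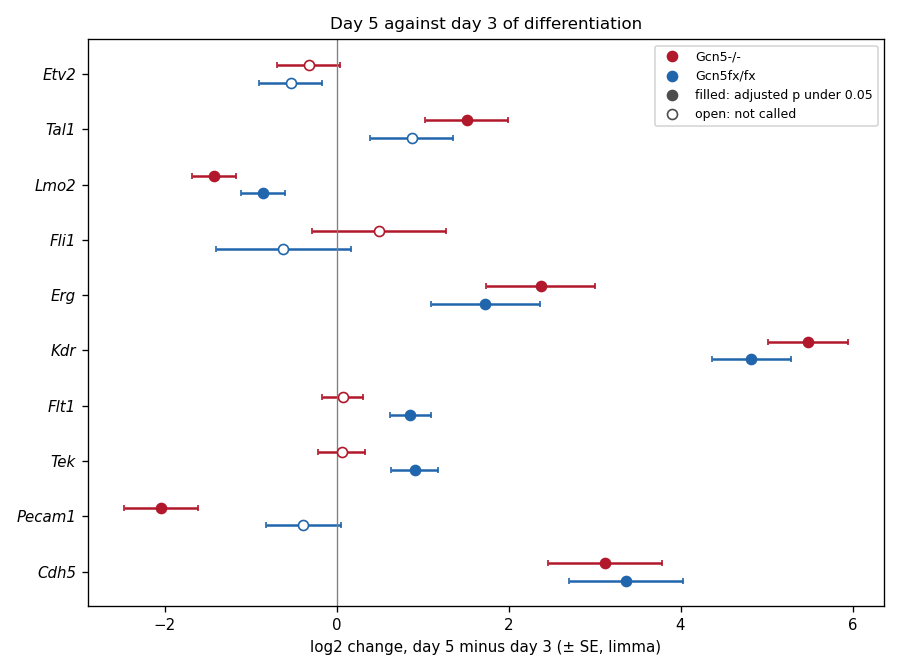
Log2 change of each gene with time (day 5 minus day 3, points with SE bars from limma) in Gcn5-/- and Gcn5fx/fx, filled where the adjusted p is under 0.05. Kdr lies at 5.48 in Gcn5-/- and 4.82 in Gcn5fx/fx, Lmo2 is below 0 in both lines, and Pecam1 is filled in Gcn5-/- alone.

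Levels of different genes were compared per kilobase of annotated exon. In Gcn5-/- at day 5 Erg stood first, at 43.5 ± 23.5 normalised reads per kb, then Lmo2 at 37.3 ± 6.36, Flt1 at 22.7 ± 3.38, Kdr at 22.6 ± 5.98 and Pecam1 at 21.6 ± 12.6, with Cdh5 last at 6.33 ± 3.96 (SD, n = 3). In Gcn5fx/fx at day 5 Pecam1 stood first at 40.7 ± 15.8 per kb, Lmo2 followed at 33.9 ± 8.27 and Erg was last at 5.03 ± 1.92. Erg was thus at opposite ends of the order in the 2 lines at that day. Of 9 pairs of neighbours in the order, 1 did not overlap in Gcn5-/- (Lmo2 above Flt1) and 0 in Gcn5fx/fx.

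At day 3 the order was led in both lines by Lmo2, at 101 ± 17.1 per kb in Gcn5-/- and 62.6 ± 19.6 in Gcn5fx/fx, and then by Pecam1, at 76.7 ± 7.30 in Gcn5-/- and 51.4 ± 13.9 in Gcn5fx/fx. Kdr and Cdh5 ended it in both, with Kdr at 0.46 ± 0.33 in Gcn5-/- and 0.65 ± 0.30 in Gcn5fx/fx and Cdh5 at 0.45 ± 0.17 in Gcn5-/- and 0.37 ± 0.44 in Gcn5fx/fx. Neighbours did not overlap in 4 of 9 pairs in Gcn5-/- (Lmo2 above Pecam1, Pecam1 above Flt1, Erg above Tal1, Tal1 above Kdr) and in 1 of 9 in Gcn5fx/fx (Tek above Tal1).

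**Figure D4:**
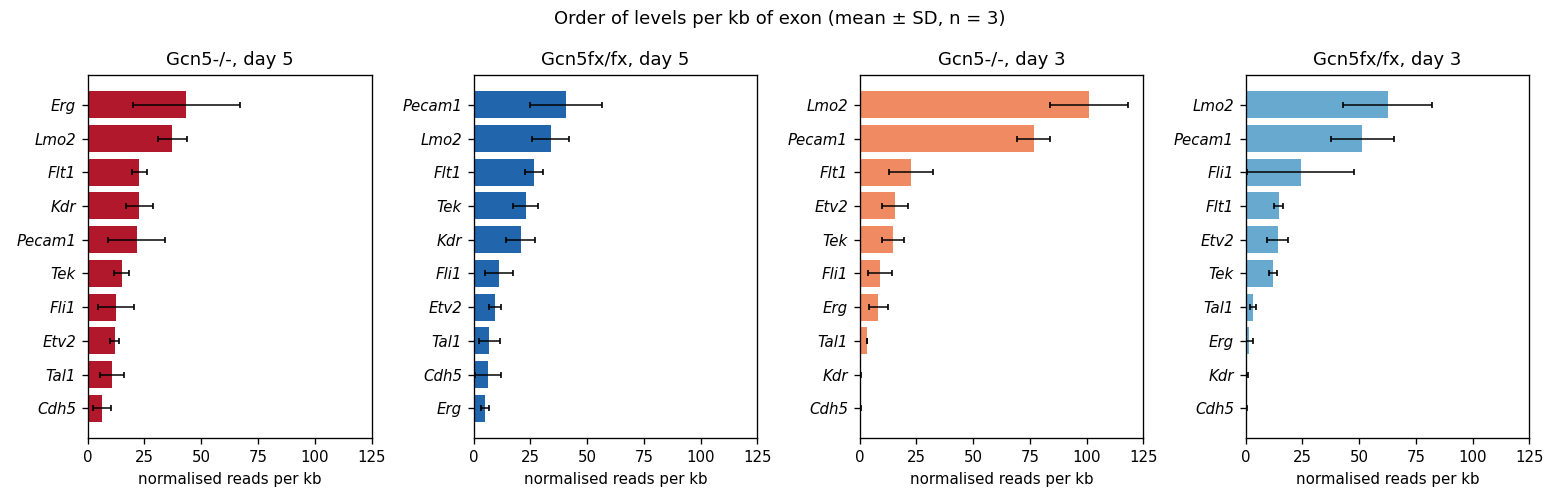
Mean level of the 10 genes in normalised reads per kb of exon (bars from 0, with SD as error bars, n = 3) in each of the 4 groups, ranked within the group. Erg is at 43.5 in Gcn5-/- and 5.03 in Gcn5fx/fx at day 5, and Kdr and Cdh5 are under 1 in both lines at day 3.

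Among the VEGF, angiopoietin and apelin ligands, Vegfc was called lower in Gcn5-/- embryoid bodies at day 5. Angpt1 was called lower and Apln higher at both days, with calls lost under the alternatives given below. Of 9 VEGF, angiopoietin and apelin ligands tested, 1 was higher and 3 lower in Gcn5-/- than in Gcn5fx/fx at day 5, and 1 was higher and 1 lower at day 3. All genes were called at 26.5% at day 5 and 6.12% at day 3. Apln was the higher one at both days, although without the libraries numbered 3 the counts were 0 higher and 3 lower at day 5 and 0 each way at day 3. The median log2 change of the 9 was -0.47 at day 5 and -0.19 at day 3. Vegfc, the ligand of the lymphatic receptor Flt4, averaged 90.0 ± 17.7 normalised reads in Gcn5-/- and 206 ± 13.97 in Gcn5fx/fx at day 5, a log2 change of -1.20 ± 0.21 (adjusted p = 0.00161, limma). Angpt1, the activating ligand of Tek, averaged 166 ± 25.6 in Gcn5-/- and 528 ± 201 in Gcn5fx/fx at day 5 (-1.61 ± 0.52, adjusted p = 0.0380, limma). That Angpt1 call was lost without the first (adjusted p = 0.134) or the third (0.0736) Gcn5fx/fx library or without the first (0.0652), second (0.104) or the third (0.0833) Gcn5-/- library of day 5. Vegfb averaged 377 ± 66.9 in Gcn5-/- and 535 ± 40.8 in Gcn5fx/fx at day 5 (-0.52 ± 0.13, adjusted p = 0.0138, limma), lost without the third Gcn5-/- library of day 5 (adjusted p = 0.0585).

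At day 3 Angpt1 averaged 9.07 ± 4.25 in Gcn5-/- and 53.3 ± 48.1 in Gcn5fx/fx (-2.13 ± 0.52, adjusted p = 0.0308, limma). That call was lost without the first (0.0771) or the third (0.0685) Gcn5fx/fx library or the first (0.103) or the third (0.0838) Gcn5-/- library of day 3, and without the libraries numbered 3 (0.153). It was also lost with only the 2 groups compared (adjusted p = 0.0783, limma). Apln, the apelin peptide of sprouting vessels, averaged 201 ± 56.2 in Gcn5-/- and 76.6 ± 25.6 in Gcn5fx/fx at day 3 (1.39 ± 0.26, adjusted p = 0.00801, limma), lost only without the libraries numbered 3 (0.0943) among the alternatives run. With time 3 ligands rose (Angpt1, Angpt2, Vegfc) and 3 fell (Vegfa, Vegfb, Apela) in Gcn5-/-, and 4 rose (the same 3 and Apln) and 2 fell (Vegfa, Vegfb) in Gcn5fx/fx, against 44.5% and 41.7% of all genes called. Angpt2 passed the filter on low values only through its day 5 groups. Angpt1 rose by a log2 change of 4.13 ± 0.52 in Gcn5-/- (adjusted p = 5.86e-05, limma) and 3.61 ± 0.52 in Gcn5fx/fx (adjusted p = 0.000155, limma). Vegfc rose by 0.92 ± 0.21 in Gcn5-/- (adjusted p = 0.00329, limma), lost without the libraries numbered 3 (0.0501), and by 1.82 ± 0.21 in Gcn5fx/fx (adjusted p = 2.73e-05, limma).

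Among 24 other endothelial receptor and junction genes tested, 4 were higher and 0 lower in Gcn5-/- at day 5, and 2 were higher and 0 lower at day 3, against 26.5% and 6.12% of all genes called. Their median log2 change was 0.33 at day 5 and 0.28 at day 3. The 4 were Flt4, Calcrl, Plxnd1 and Dll4, a Notch ligand of arterial cells, and with the replicate block the day 5 count was 8 higher and 0 lower. With chromosome 11 centred it was 3, Dll4 being lost. Without the libraries numbered 3 the counts were 4 at day 5 and 1 at day 3, among the 21 genes then tested. Flt4, the receptor for Vegfc, averaged 213 ± 64.1 normalised reads in Gcn5-/- and 101 ± 21.3 in Gcn5fx/fx at day 5 (1.05 ± 0.21, adjusted p = 0.00338, limma), and like Pecam1 it lies on chromosome 11. Calcrl, the adrenomedullin receptor, averaged 239 ± 9.32 in Gcn5-/- and 132 ± 18.7 in Gcn5fx/fx at day 5 (0.86 ± 0.16, adjusted p = 0.00220, limma). Plxnd1, a semaphorin receptor of vessels, averaged 706 ± 66.6 in Gcn5-/- and 421 ± 32.2 in Gcn5fx/fx at day 5 (0.74 ± 0.16, adjusted p = 0.00612, limma). It was also higher at day 3, with 475 ± 121 in Gcn5-/- and 235 ± 35.2 in Gcn5fx/fx (0.99 ± 0.16, adjusted p = 0.00438, limma).

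Cd34, a sialomucin of blood progenitors and endothelium, averaged 214 ± 43.2 in Gcn5-/- and 99.9 ± 8.95 in Gcn5fx/fx at day 3 (1.08 ± 0.26, adjusted p = 0.0267, limma). Its call was lost without the first (0.0843), second (0.0547) or the third (0.0720) Gcn5fx/fx library or the second (0.0889) or the third (0.0758) Gcn5-/- library of day 3. With time 12 of the 24 rose and 4 fell (Cd34, Eng, Egfl7, Nos3) in Gcn5-/-, and 13 rose and 4 fell (Flt4, Eng, Egfl7, Nos3) in Gcn5fx/fx, against 44.5% and 41.7% of all genes called. In each line 6 of the risers (Esam, Ptprb, Tie1, Mmrn2, Aplnr and S1pr1) passed the filter only through their day 5 groups, which fixes part of the rising count. Nrp2, a co-receptor for VEGF-C, rose by 3.49 ± 0.29 in Gcn5-/- (adjusted p = 3.41e-06, limma) and 3.28 ± 0.29 in Gcn5fx/fx (adjusted p = 3.96e-06, limma). Nrp1, the co-receptor of Kdr, rose by 3.93 ± 0.39 in Gcn5fx/fx (adjusted p = 9.08e-06, limma), and Ramp2, the partner of Calcrl, rose by 1.81 ± 0.21 in Gcn5-/- (adjusted p = 3.26e-05, limma).

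Elf4 and Ets1 were the ETS factors beside Erg with the smallest p among those higher in Gcn5-/- embryoid bodies, and Etv4 among those lower. Of 15 further ETS genes tested, 4 were higher (Elf4, Ets1, Elf1, Elk4) and 4 lower (Etv4, Etv5, Etv1, Gabpa) in Gcn5-/- at day 5, and 1 was higher and 0 lower at day 3, against 26.5% and 6.12% of all genes called. Their median log2 change was 0.0094 at day 5 and -0.053 at day 3. Elf4 averaged 514 ± 134 normalised reads in Gcn5-/- and 156 ± 40.1 in Gcn5fx/fx at day 5 (1.72 ± 0.23, adjusted p = 0.000300, limma), and Ets1, the founding ETS factor, 1844 ± 206 in Gcn5-/- and 896 ± 273 in Gcn5fx/fx (1.08 ± 0.18, adjusted p = 0.00137, limma). Etv4, an ETS factor downstream of FGF signals, averaged 66.99 ± 29.8 in Gcn5-/- and 287 ± 165 in Gcn5fx/fx at day 5 (-2.04 ± 0.37, adjusted p = 0.00193, limma). It also lies on chromosome 11, whose median log2 change was 0.33 at day 5, the other way. At day 3 that median was 0.36, the same direction as Etv4. At day 3 Etv4 averaged 465 ± 24.2 in Gcn5-/- and 272 ± 18.99 in Gcn5fx/fx, without overlap (0.77 ± 0.37, adjusted p = 0.233, limma), and it was the 1 ETS gene called for a difference in day change (-2.81 ± 0.52, adjusted p = 0.0368, limma). That call was lost without any 1 library other than the third Gcn5fx/fx library of day 3 and the second Gcn5fx/fx library of day 5 (adjusted p = 0.0546 to 0.0989), and without the libraries numbered 3 (0.101). Elf4 was higher in Gcn5-/- at day 3 too, with 193 ± 18.0 in Gcn5-/- and 105 ± 19.8 in Gcn5fx/fx (0.89 ± 0.23, adjusted p = 0.0356, limma). That day 3 call was lost without any 1 of the first (0.118) or the third (0.0965) Gcn5fx/fx libraries or the first (0.0935), second (0.0570) or the third (0.114) Gcn5-/- libraries of day 3, and with chromosome 11 centred (0.0552). With the replicate block the ETS count at day 3 was 1 higher and 1 lower (Etv1), and without the libraries numbered 3 it was 0.

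With time 7 of the 15 rose and 5 fell (Etv4, Etv5, Etv1, Elk1, Gabpa) in Gcn5-/-, and 4 rose (Elk3, Elk4, Elf1, Elf2) and 3 fell (Etv1, Elk1, Gabpa) in Gcn5fx/fx, against 44.5% and 41.7% of all genes called. Elf2 rose by 0.63 ± 0.07 in Gcn5-/- (adjusted p = 1.75e-05, limma) and 0.58 ± 0.07 in Gcn5fx/fx (adjusted p = 2.88e-05, limma). Etv4 fell by 2.89 ± 0.37 on the log2 scale in Gcn5-/- (adjusted p = 5.90e-05, limma). Elf1 rose by 0.67 ± 0.12 in Gcn5fx/fx (adjusted p = 0.000587, limma).

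Of 23 other transcription factors of the programme tested, 3 were higher and 3 lower (Myb, Cbfb, Klf2) in Gcn5-/- at day 5, a share close to the 26.5% of all genes called. At day 3 limma, edgeR and DESeq2 each called 0, and 2 were under an unadjusted p of 0.05 in limma. The median log2 change was 0.12 at day 5 and 0.23 at day 3. The 3 that were higher at day 5 were Mef2c, Hhex and Foxo1. Mef2c, a MADS-box factor of heart and vessels, averaged 349 ± 8.53 in Gcn5-/- and 137 ± 29.1 in Gcn5fx/fx (1.37 ± 0.31, adjusted p = 0.00669, limma). Hhex, a homeobox factor of early endothelium and liver, averaged 128 ± 20.3 in Gcn5-/- and 66.9 ± 16.7 in Gcn5fx/fx (0.95 ± 0.20, adjusted p = 0.00546, limma). Foxo1, a forkhead factor, averaged 816 ± 170 in Gcn5-/- and 477 ± 46.8 in Gcn5fx/fx (0.76 ± 0.14, adjusted p = 0.00203, limma). The 3 lower genes were not called without the libraries numbered 3, which left 3 higher and 0 lower, and with the block 3 were higher and 6 lower.

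With time 12 of the 23 rose and 2 fell (Myb, Ikzf1) in Gcn5-/-, and 16 rose and 3 fell (Myb, Hhex, Foxo1) in Gcn5fx/fx, against 44.5% and 41.7% of all genes called. Of the risers Gata3 and Cbfa2t3 passed the filter only through their day 5 groups. Mef2c rose by 3.06 ± 0.31 in Gcn5-/- (adjusted p = 1.16e-05, limma), and Tcf12, a partner of Tal1, by 1.21 ± 0.13 in Gcn5fx/fx (adjusted p = 1.71e-05, limma). Sox17, a factor of endoderm and of arterial endothelium, rose by 3.25 ± 0.35 in Gcn5-/- (adjusted p = 1.79e-05, limma) and 3.35 ± 0.35 in Gcn5fx/fx (adjusted p = 1.32e-05, limma). The 10 markers of extraembryonic endoderm, of which Sox17 is 1, summed to 3217 to 8055 normalised reads in Gcn5-/- and 3826 to 12874 in Gcn5fx/fx at day 5, against 1820 to 1954 in Gcn5-/- and 712 to 2726 in Gcn5fx/fx at day 3, and their part in the Sox17 change was not tested.

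Blood cell genes ranged widely in level. Kit, the stem cell factor receptor, averaged 1067 ± 135 in Gcn5-/- and 952 ± 199 in Gcn5fx/fx at day 5, while Hba-x, an embryonic alpha-like globin, averaged 15.4 ± 8.09 in Gcn5-/- and 10.9 ± 3.22 in Gcn5fx/fx. Of 12 listed, 8 were tested, of which 1 was higher and 0 lower in Gcn5-/- at day 5, against 26.5% of all genes called. At day 3 limma and edgeR called 0 and DESeq2 1, with 2 under an unadjusted p of 0.05 in limma, and 1 (Kit) was called with the block. The median log2 change of the 8 was 0.28 at day 5 and 0.29 at day 3. Itga2b, the CD41 integrin of early blood progenitors, averaged 68.9 ± 24.1 in Gcn5-/- and 22.7 ± 7.09 in Gcn5fx/fx at day 5 (1.55 ± 0.31, adjusted p = 0.00385, limma). It lies on chromosome 11, and its call held with that chromosome centred. The 4 primitive blood markers Gata1, Hbb-bh1, Hba-x and Itga2b summed to 104 to 158 in Gcn5-/- and 52.8 to 84.7 in Gcn5fx/fx at day 5. At day 3 they summed to 45.5 to 61.7 in Gcn5-/- and 26.8 to 36.8 in Gcn5fx/fx. Itga2b, called above, is part of these sums, as is Gata1, which was under the filter on low values and was not tested. Klf1, Hbb-y and Ptprc, further markers on that list, were not analysed here.

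Hbb-bh1, the embryonic beta-like globin, had 32.8, 67.6 and 26.7 normalised reads in Gcn5-/- and 31.0, 19.3 and 34.0 in Gcn5fx/fx at day 5. At day 3 it had no read in the 3 Gcn5-/- libraries and 1, 0 and 1 reads in those of Gcn5fx/fx. Set against a floor of 3 reads per library, the Gcn5-/- mean was at least 12.3-fold higher at day 5. Its reads may be shared with the other beta globins. Csf1r, a receptor of macrophages, had 7.91, 5.83 and 19.6 in Gcn5-/- and 11.9, 14.2 and 7.86 in Gcn5fx/fx at day 5, with at most 1 read in any day 3 library. With time 4 blood genes rose (Cd44, Csf1r, Hbb-bh1, Hba-x) in each line, while Kit and Epor fell in Gcn5-/- and Epor fell in Gcn5fx/fx. Of these risers Hbb-bh1, Hba-x and Csf1r passed the filter only through their day 5 groups, so that 3 of the 4 rises were built into the selection. All genes were called at 44.5% in Gcn5-/- and 41.7% in Gcn5fx/fx.

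Likeness of pattern was measured as Pearson's r of log2(value + 1) over the 12 libraries, among genes with a mean of at least 100, as a description that follows the 4 groups and the replicate numbers the libraries share. For Pecam1, the gene of the 10 with the highest mean, the nearest 4 were 4930579G24Rik (0.951), Rex2 (0.933), Zfp600 (0.925) and 4930566F21Rik (0.918), none of them on chromosome 11. For Flt1 they were Nfil3 (0.899), Txndc16 (0.896), Rsbn1 (0.868) and Celf2 (0.854). For Erg, added after its values were seen, they were Ifih1 (0.966), Psmb8 (0.962), Osbpl6 (0.961) and Nt5c (0.957).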

How the data were processed

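RNA was measured in 12 libraries of embryoid bodies, 3 per line and day, from stranded total RNA kits with 8 PCR cycles, per the labels' protocols. Per the submitters' processing notes the build was mm10, and the tools include DESeq 1.16.0, HTSeq 0.6.0, the aligner TopHat2 2.0.10 and CASAVA 1.8.2. Whether counting used the strand is not given in the sources used here; no exon base of the 10 genes is shared with another annotated gene. The deposited signal is the authors' read count divided by a size factor per library: 100% of values were whole multiples of 1 read (tolerance 0.01), and totals were 18022071 to 29446068 reads. Symbols of 18199 IDs and positions came from GENCODE M21, of the same build, and promoters from RefSeq (GRCm38.p6).

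Genes were tested by limma-trend (R 4.3.3, limma 3.58.1) on log2(value + 1), all 12 libraries entering as 4 group means. A gene needed a mean of 10 normalised reads or more in some group, which left 17000. The script was first tested on simulated data. Log2 changes are on the log2(value + 1) scale, which understates low genes, and errors are SE (limma) or SD (n = 3). The recovered counts went into edgeR 4.0.16 and DESeq2 1.42.0 as alternatives, 2 of 23, of which 12 left out a library and 1, without the 4 libraries numbered 3, was chosen after seeing the data. Centring chromosome 11 subtracts its median change.

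The members and lists were chosen with earlier results of these data known. All 10 genes are named in each comparison; from each list the called genes with the smallest p are named, at most 3 per genotype comparison and 2 per day comparison, and any other named gene was chosen after its values were seen. Genes of the lists that were unlisted were not analysed here, and those under the filter on low values were not tested. Of the latter, Gata1 is part of the sums of primitive blood markers.

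Same-numbered libraries of the 2 lines deviated together from their group means (r = 0.270 to 0.372 at day 3, 0.247 to 0.424 at day 5), those of different number at most at -0.0175 and 0.0268, so the numbers were taken to pair the libraries between genotypes. Between days the ranges were 0.123 to 0.282 in Gcn5-/- and 0.0814 to 0.214 in Gcn5fx/fx. Libraries of different number reached 0.0521 between days in Gcn5-/-, below the same-numbered range, and 0.124 in Gcn5fx/fx, inside it. By the measure used between genotypes, the numbers would thus pair the days in Gcn5-/- and not in Gcn5fx/fx. The main fit used no replicate block, so its tests between genotypes and between days are unpaired. The block was run as an alternative, and between genotypes it added calls for Lmo2 at day 3 and Pecam1 at day 5.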

Additional observations from a re-analysis of the deposited data

How the results depend on the processing

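Of the 14 called changes of the 10 genes, 9 kept their call under every one of the 23 alternatives in which the gene was tested. Cdh5 and Tal1 were not tested with the filter at a mean of 50, so their called changes rest on the other alternatives. None of the 14 reversed. The number of genes called between genotypes at day 3, 1 as reported, was 0 with a pseudocount of 0.5 or 5, with only the 2 groups compared, with chromosome 11 centred, in edgeR and without the libraries numbered 3, and 2 with the replicate block; leaving out 1 library gave 0 to 1. At day 5 it was 2 with the block or with chromosome 11 centred, and 1 to 2 leaving out 1 library. For the day change in Gcn5fx/fx, leaving out 1 library gave 3 to 6. Apart from Lmo2 at day 3 and Pecam1 at day 5, the block changed no call of the 10 genes.

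Changes that were not called turned sign in 31 values; the cause was not tested. Tal1 between genotypes at day 3 was -0.033 in edgeR and -0.021 in DESeq2. Without the libraries numbered 3, Tek between genotypes at day 3 was -0.037, Flt1 at day 5 was 0.0089 and the Flt1 day change in Gcn5-/- was -0.032. The difference in day change of Cdh5 was 0.023 with a pseudocount of 5. Leaving out 1 library gave, between genotypes at day 3, -0.12 to 0.43 for Etv2, -0.31 to 0.29 for Tal1, -0.0036 to 0.48 for Tek and -0.13 to 0.98 for Cdh5. At day 5 it gave -0.018 to 0.33 for Lmo2, -0.38 to 0.52 for Fli1, -0.14 to 0.30 for Kdr and -0.29 to 0.85 for Cdh5. For the day change it gave -1.57 to 0.21 for Fli1 in Gcn5fx/fx and, in Gcn5-/-, -0.13 to 0.85 for Fli1, -0.15 to 0.40 for Flt1 and -0.17 to 0.31 for Tek. For the difference in day change it gave -0.10 to 0.45 for Etv2 and -0.81 to 0.43 for Cdh5.

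Over all genes, 1041 were called between genotypes at day 3 (1866 with the replicate block, 474 with chromosome 11 centred, 1601 in DESeq2, 383 without the libraries numbered 3), 4509 at day 5 (2591 without the libraries numbered 3) and 81 for the difference in day change (443 with the block, 472 in DESeq2, 35 without the libraries numbered 3). At day 3 Kdr and Cdh5 rest on a few reads per library, which limits any genotype comparison of them there.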
